A study of Mus musculus with 6 samples.

Results

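The 9 lymphocyte marker genes examined in the cochlea of young and old mice were Cd3e, Cd3g, Cd4, Cd8a, Nkg7, Cd79a, Cd79b, Vpreb1 and Jchain. They were chosen by name as markers of the T, NK and B lineages, and all 9 were found among the 25419 genes of the table. Cochlear tissue of C57BL/6 mice, an inbred strain with early hearing loss, was sequenced in 3 young samples (1 month old) and 3 old samples (12 months old), each a pool of 3 mice. The labels give no transgene or treatment, and they name the basilar membrane as the part that was extracted. The values are FPKM, fragment numbers scaled to transcript length and sequencing depth, summed here over the transcripts of each gene. The age groups were tested with limma on log2(FPKM + 0.1) over the 19465 genes whose mean reached 0.1 FPKM, and p was adjusted by the Benjamini-Hochberg method against a threshold of 0.05. Every log2 change is old minus young, so that the change of a gene with low values is understated by the added 0.1.

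T cells recognise antigen through a receptor whose signal is carried into the cell by the CD3 chains, and the co-receptors CD4 and CD8 bind the MHC molecule of the presenting cell. NK cells and cytotoxic T cells kill target cells with granules that hold perforin and granzymes. B cells develop in the bone marrow, first with a surrogate light chain and then with an antibody on their surface, and plasma cells secrete that antibody. The cochlea holds resident macrophages and few lymphocytes, and it lies within bone that contains marrow.

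Of the 5 T and NK markers, Cd3g, Cd4 and Nkg7 passed the test as higher in old cochleae, and the B lineage markers did not pass in either direction. The call of Nkg7 (limma adjusted p = 0.0490) depended on leaving out 404 transcripts not found in the gene annotation (0.0506 with them kept). No member passed when any one old sample was left out. The risen genes make 3 of the 8 members tested, while 5.65% of all genes tested were higher in old mice. None of the members passed as lower, against 3.81% of all genes. Cd3e and Cd8a did not pass, although their old samples all lay above their young samples. This separation was seen for 6 of the 9 members, Jchain included, and for 17.6% of all genes tested, whereas 16.1% of all genes had all old samples below all young samples and no member did. Cd3e, Cd3g and Cd8a had means under 0.1 FPKM in young mice and entered the test only through their old samples, so that the count of 3 in 8 is a description. The median log2 change of the 8 members tested was 1.37, and that of all genes tested was 0.0088. Vpreb1, with a mean of 0.0516 FPKM over the 6 samples, was below the limit for the test. In bulk tissue, more cells of a type cannot be told apart from more RNA per cell.

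**Figure D1:**
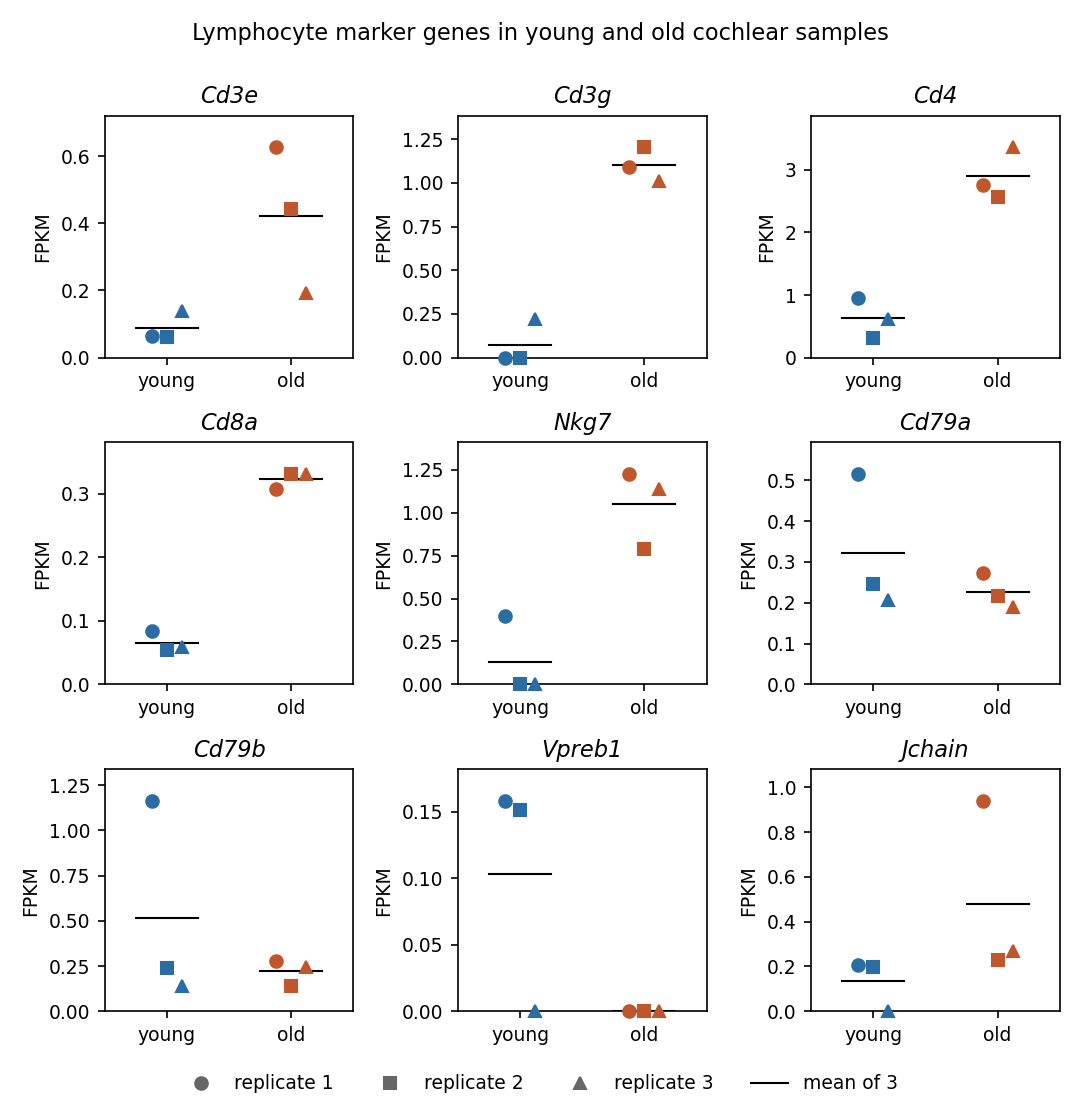
FPKM of the 9 lymphocyte marker genes in the 3 young and 3 old samples, with 1 panel per gene, its own linear axis from 0, and a line at the mean of 3. The 5 T and NK members and Jchain have every old sample above every young sample, and Cd79a, Cd79b and Vpreb1 have their highest value in young replicate 1.

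The sequences just upstream of Cd3e, Cd3g, Cd8a and Jchain, the antibody joining chain, are shown. These are the 4 members for which a RefSeq (GRCm38.p6) upstream sequence was available and long enough outside the gene. The other members, Cd4 and Nkg7 among them, are not shown. Each printed sequence ends before the start of the gene as both RefSeq and GENCODE M21 give it. Capitals mark AGGAA or its reverse complement, the core letters of sites for ETS factors, which many lymphocyte genes use.
Cd8a, chr6:71373277-71373426, plus strand: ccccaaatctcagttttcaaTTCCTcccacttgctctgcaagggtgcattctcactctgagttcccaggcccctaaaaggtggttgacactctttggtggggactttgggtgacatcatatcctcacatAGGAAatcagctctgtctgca
Cd3e, chr9:45009628-45009761, minus strand: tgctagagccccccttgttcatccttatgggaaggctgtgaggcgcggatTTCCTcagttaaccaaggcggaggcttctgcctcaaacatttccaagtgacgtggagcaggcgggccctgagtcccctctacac
Cd3g, chr9:44980432-44980581, minus strand: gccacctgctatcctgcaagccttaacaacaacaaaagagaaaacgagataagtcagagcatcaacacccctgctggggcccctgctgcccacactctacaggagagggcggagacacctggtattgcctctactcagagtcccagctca
Jchain, chr5:88527898-88528047, minus strand: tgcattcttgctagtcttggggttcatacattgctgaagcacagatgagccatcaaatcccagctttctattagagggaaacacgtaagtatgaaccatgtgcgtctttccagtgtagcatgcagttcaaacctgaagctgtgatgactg
The Cd8a window held this motif at positions -130 and -21 and the Cd3e window, of 134 bases, held it at position -84, where -1 is the last base printed. The Cd3g and Jchain windows held no match. Among 32851 windows of 150 bases upstream of genes, 42.1% held AGGAA on either strand, so a match was common. Longer or rarer motifs were searched on both strands as well. These were CCGGAA (9.23% of the windows), which contains no AGGAA but the related GGAA core, TGTGGT of RUNX factors (8.4%), the E-box CAGCTG (8.39%), the octamer ATTTGCAT (0.998%) and TCCCNNGGGA of EBF (0.447%), and none of them was found in the 4 windows shown. A match is a stretch of letters and not a measured site.

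Cd3e and Cd3g encode the epsilon and gamma chains of CD3. They lie near each other on the minus strand of chromosome 9 (GRCm38, GENCODE M21), Cd3g at chr9:44969572-44980431 and Cd3e at chr9:44998740-45009627, with 18309 bp between them. Cd3g was listed at 0, 0 and 0.219 FPKM in young replicates 1 to 3 and at 1.09, 1.204 and 1.01 FPKM in old replicates 1 to 3. All old samples were several times above the only young sample with a value. The log2 change was 3.03 (SE 0.55, limma adjusted p = 0.0237). Only without young replicate 3 did Cd3g pass when 1 sample was left out, and without any of the other samples its limma adjusted p was 0.0533 to 0.0913. Cd3e was at 0.0656, 0.0629 and 0.140 FPKM in the young samples, against 0.626, 0.442 and 0.194 FPKM in the old. The groups did not overlap, but old replicate 3 lay close to young replicate 3. The mean rose from 0.0894 ± 0.0436 to 0.421 ± 0.217 FPKM (SD, n = 3) without passing the test (log2 change 1.39, SE 0.52, limma adjusted p = 0.137).

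Few fragments stand behind these values. FPKM of low transcripts fell on steps that correspond to whole fragments, and from these steps 2 fragments of Cd3g were estimated over the 3 young samples and 34 over the 3 old samples. Per fragment sequenced, the old samples had 16.0 times the young level, with an exact 95% interval of 4.11 to 138 that covers counting error only. For Cd3e the totals were 4 and 20 fragments, a ratio of 4.71 (1.58 to 19.0). All fragments of Cd3g were assigned to the transcript of 1023 nt, and the second transcript of 412 nt was listed at 0 in every sample. Cd3e overlaps the annotated genes Gm48719 on the opposite strand and Gm48720 on its own strand, whose levels were not analysed here.

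Cd4 and Cd8a encode the co-receptors of helper and cytotoxic T cells, and in mice CD4 is also carried by some dendritic cells and macrophages. Cd4 (chr6:124864692-124888221, minus strand) was the most abundant member, at 0.960, 0.307 and 0.625 FPKM in young samples and 2.76, 2.57 and 3.36 FPKM in old samples. The lowest old sample was more than 2-fold above the highest young sample. The mean was 0.630 ± 0.327 FPKM in young and 2.90 ± 0.413 FPKM in old mice (SD, n = 3; log2 change 2.13, SE 0.37, limma adjusted p = 0.0219). Cd4 passed without any one young sample but not without old replicate 1, 2 or 3 (limma adjusted p of 0.0642, 0.0751 and 0.0693). About 70 fragments in young and 340 in old samples carried this value, a ratio of 4.58 (exact 95% interval 3.53 to 6.01), so that Cd4 was the member with the smallest counting error.

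Cd8a (chr6:71373427-71379173, plus strand) was at 0.0839, 0.0537 and 0.0596 FPKM in the young samples, against 0.308, 0.331 and 0.331 FPKM in the old. The samples of each group were close to each other and the groups were far apart. The means were 0.0657 ± 0.0160 and 0.323 ± 0.0133 FPKM (SD, n = 3), and the log2 change of 1.36 (SE 0.45) had a limma adjusted p of 0.1004. Cd8a passed the test when the variance was not modelled as a trend on the mean (limma adjusted p = 0.0208) or without the limit on low values (0.0176). The fragment totals were 7 in young and 37 in old samples, a ratio of 4.98 (exact 95% interval 2.19 to 13.2). The authors' quantification assigned nearly all Cd8a fragments of old replicate 1 to the transcript of 5 exons (ENSMUST00000066747, 3128 nt) and those of the other 5 samples to the transcript of 4 exons (ENSMUST00000172321, 2975 nt). Summed over both transcripts, the value of old replicate 1 matched the other old samples, while the more abundant transcript alone gave a log2 change of 0.68 (limma adjusted p = 0.593).

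Nkg7 encodes a granule membrane protein of NK cells and cytotoxic T cells, and it lies at chr7:43437073-43438249 on the plus strand. It was at 0.399 FPKM in young replicate 1 and listed at 0 in young replicates 2 and 3, and it was at 1.22, 0.790 and 1.14 FPKM in old samples. All old samples lay above young replicate 1. The log2 change was 2.73 (SE 0.68) and passed the test narrowly (limma adjusted p = 0.0490). With the 404 Ensembl transcripts that were not found in GENCODE M21 kept as further features, the limma adjusted p of Nkg7 was 0.0506, above the threshold. It passed without young replicate 1 (0.0220), but without any of the other samples its limma adjusted p was 0.0962 to 0.133. The total was 3 fragments in young and 22 in old samples, a ratio of 6.91 (exact 95% interval 2.08 to 36.1). Both quantified transcripts (881 and 686 nt), of 3 annotated for Nkg7, received fragments.

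Together the 5 T and NK members summed to 1.51, 0.424 and 1.04 FPKM in young samples and to 6.01, 5.33 and 6.03 FPKM in old samples. Their fragments numbered about 42.9, 14.9 and 28.1 in young and 135, 156 and 162 in old samples. Cd4 supplied most of these fragments in every sample, so the sum is mainly a reading of Cd4. Among the 5 genes, the order in old mice by mean level was Cd4, Cd3g (1.10 FPKM), Nkg7 (1.05 FPKM), Cd3e and Cd8a. Cd3g and Nkg7 overlapped in old mice, and so did Cd3e and Cd8a, whereas Cd4 lay above the other 4 genes in every old sample.

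Cd79a and Cd79b encode the signalling pair of the B cell receptor. Cd79a (chr7:24897381-24902197, plus strand) was at 0.515, 0.247 and 0.206 FPKM in the young samples, against 0.273, 0.217 and 0.190 FPKM in the old. Only young replicate 1 stood above the rest, and the groups overlapped. The means were 0.323 ± 0.168 and 0.227 ± 0.0424 FPKM (SD, n = 3; log2 change -0.31, SE 0.45, limma adjusted p = 0.695). Cd79b (chr11:106311341-106314762, minus strand) was at 1.16, 0.239 and 0.140 FPKM in the young samples, against 0.280, 0.140 and 0.245 FPKM in the old. Young replicate 1 was again the highest, and the other 5 samples lay within a narrow range. The log2 change was -0.57 (SE 0.67, limma adjusted p = 0.620), and without young replicate 1 it was 0.14 (limma adjusted p = 0.893). Without young replicate 1 the log2 change of Cd79a was -0.0036. The totals were 15 and 11 fragments for Cd79a and 19 and 9 for Cd79b, with exact 95% intervals of the old to young ratio from 0.287 to 1.61 and from 0.178 to 1.04. A change of the size seen in Cd4 lies outside both intervals, but these cover counting error only and leave out the spread between pools. Young replicate 1 held about 14 fragments of Cd79b, against about 3 and 2 in young replicates 2 and 3. The interval of Cd79b thus rests mainly on that sample, and no conclusion is drawn from it. Fragments of Cd79b were assigned to a transcript of 1431 nt in young replicate 3 and old replicate 1 and to a transcript of 1195 nt in the other 4 samples.

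Vpreb1 encodes a part of the surrogate light chain of pro-B and pre-B cells (chr16:16868403-16870843, minus strand). It was listed at 0.158 and 0.151 FPKM in young replicates 1 and 2 and at 0 in young replicate 3 and in all old samples. Each of the former values corresponds to about 1 fragment, and the 0 fragments of the old samples allow up to 3.69 by an exact 95% interval, so that no difference was detectable at this depth (exact permutation test, two-sided p = 0.4). The gene overlaps the start of Top3b on the opposite strand, which was at 3.10 to 6.07 FPKM. Jchain links the chains of secreted IgM and IgA and marks plasma cells (chr5:88519809-88527891, minus strand). It was at 0.204, 0.196 and 0 FPKM in the young samples, against 0.940, 0.229 and 0.268 FPKM in the old. Old replicate 1 was far above the others, and old replicate 2 was barely above young replicate 1. The log2 change of 1.27 (SE 0.68) did not pass (limma adjusted p = 0.273), on 6 fragments in young and 21 in old samples. In an exact permutation test of 3 samples against 3, the smallest two-sided p is 0.1, which was reached by the 6 members without overlap, while Cd79a gave 0.6 and Cd79b gave 0.8.

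**Figure D2:**
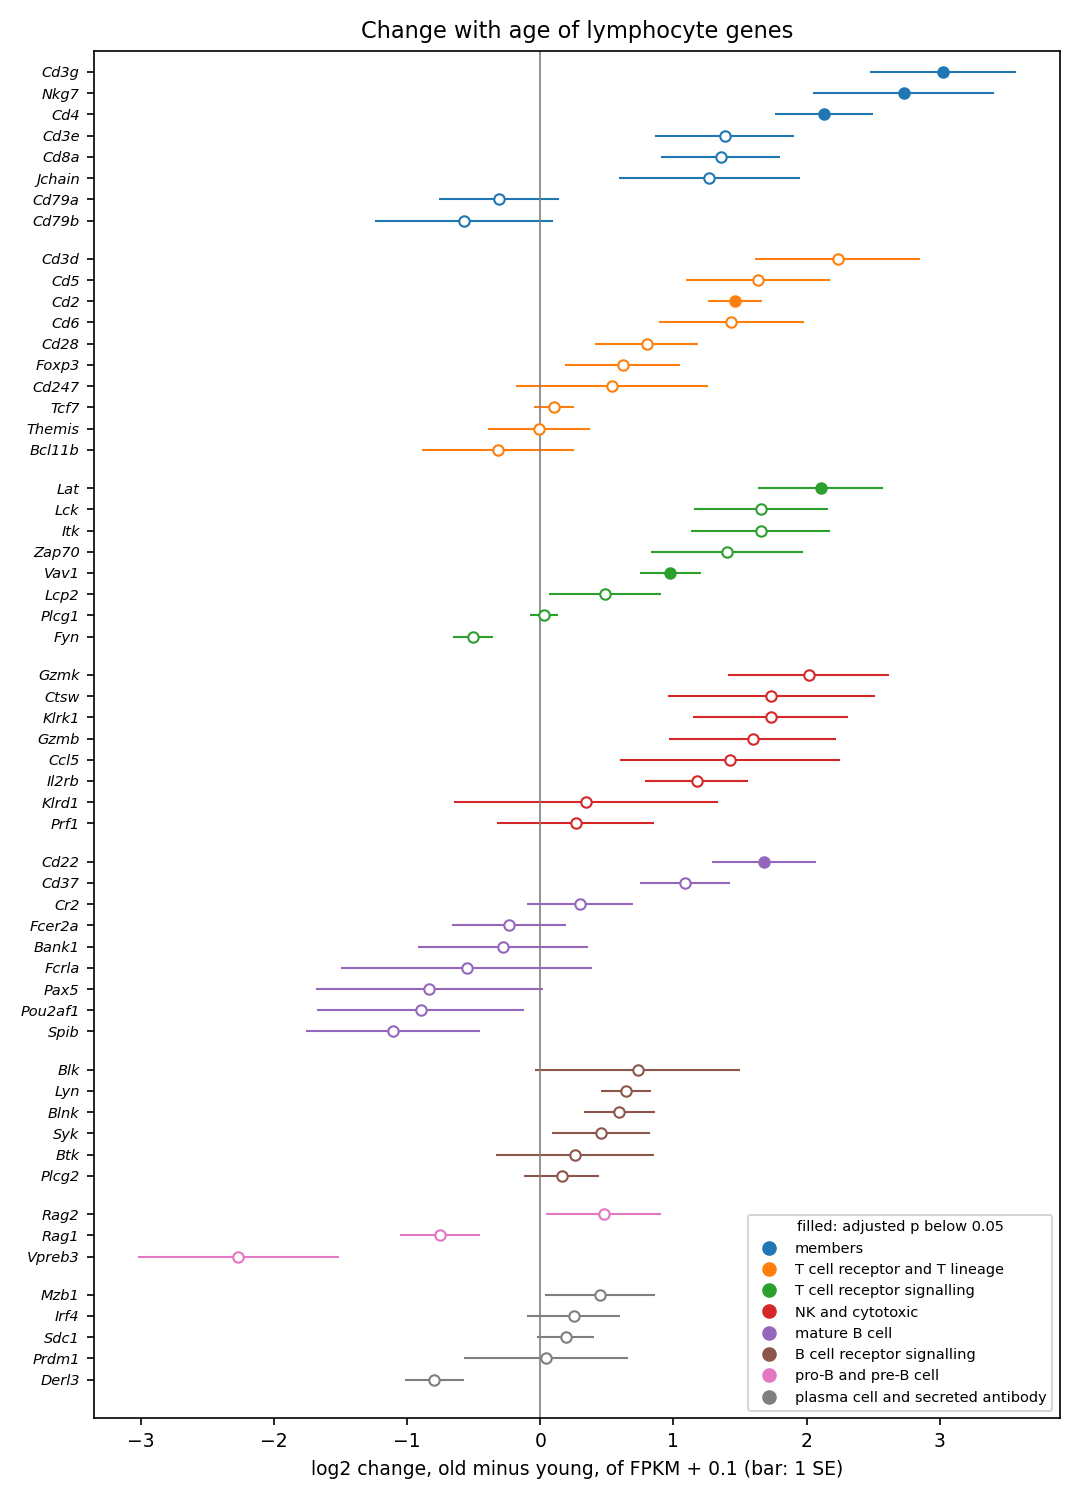
Log2 change (old minus young, of FPKM + 0.1) of the 8 members tested and of other listed lymphocyte genes, with bars of 1 SE and filled points for a limma adjusted p below 0.05. Cd3g, Nkg7 and Cd4 stand at the upper end with changes of 3.03, 2.73 and 2.13, and Cd79a and Cd79b lie below 0 with bars that cross it.

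Other genes of the T lineage were read from a list of 16 genes, of which 12 were analysed here. The constant genes of the T cell receptor (Trac, Trbc1, Trbc2 and Trdc) were not analysed here. Of the 10 genes tested, 1 rose and none fell, where 5.65% of all genes tested were higher and 3.81% lower. The median log2 change was 0.71, and 6 of the 10 had all old samples above all young samples, against 17.6% of all genes tested. These shares of all genes stand beside the counts of every list below. The gene that rose was Cd2, an adhesion molecule of T and NK cells, which was at 1.39, 1.09 and 1.67 FPKM in young and at 4.07, 3.80 and 3.95 FPKM in old samples. The old samples were tightly grouped and 13.0 to 17.9 fragments per young sample stood against 43.9 to 52.0 per old sample (log2 change 1.46, SE 0.20, limma adjusted p = 0.0132). Its limma adjusted p was 0.0609 without old replicate 2 and was below the threshold without any other sample. Of the other abundant genes of the list, the transcription factor Tcf7 had a log2 change of 0.11, the T cell regulator Themis one of -0.01 and the co-stimulatory receptor Cd28 one of 0.80, and none of them passed.

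Cd3d, the third CD3 chain, and Cd8b1, the partner chain of Cd8a, were looked at after their values had been seen. Cd3d was listed at 0 in all young samples, against 0.154, 0.796 and 0.358 FPKM in old samples, with a limma adjusted p of 0.0650. Cd8b1 was listed at 0 in all young samples, against 0.200, 0.212 and 0.186 FPKM in old samples, or 3 to 4 fragments each, and its mean was under the limit for the test. Both had all old samples above all young samples, but this did not hold for the zeta chain gene Cd247, also chosen after its values had been seen. Cd247 was at 0.280, 0.215 and 0.224 FPKM in the young samples, against 0.630, 0.944 and 0.0552 FPKM in the old, with old replicate 3 below every young sample (log2 change 0.54, limma adjusted p = 0.668).

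Of 8 genes that carry the signal of the T cell receptor, 2 rose and none fell, with a median log2 change of 1.19. Of all genes tested, 5.65% were higher and 3.81% lower. Lat, the adaptor that is phosphorylated after receptor binding, was at 0.325, 0.0779 and 0.424 FPKM in young and at 1.18, 1.81 and 1.201 FPKM in old samples (log2 change 2.11, SE 0.47, limma adjusted p = 0.0373). Vav1, an exchange factor of many blood cells, was at 1.10, 1.38 and 1.11 FPKM in young and at 2.11, 3.06 and 2.25 FPKM in old samples (log2 change 0.98, SE 0.23, limma adjusted p = 0.0415). Neither gene had overlapping groups. Lat passed only without young replicate 3 when 1 sample was left out (otherwise 0.0679 to 0.134), and Vav1 passed in none of these comparisons (limma adjusted p of 0.0780 to 0.145). Plcg1 and Fyn, which many tissues express, were far more abundant, at 33.7 to 43.1 and 15.0 to 29.3 FPKM, and had log2 changes of 0.03 and -0.50 without passing.

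The NK and cytotoxic list of 15 genes had 8 genes tested, of which none passed in either direction, with a median log2 change of 1.51. All 8 had a positive log2 change, and 4 of them had all old samples above all young samples, against 17.6% of all genes tested. Ncr1, the receptor that defines NK cells, and the granzyme Gzma were listed at 0 in every sample. Klrk1, Klre1 and Gzmb were listed at 0 in all young samples. In old samples they were at 0.127 to 0.404, 0.063 to 0.159 and 0.0656 to 0.337 FPKM, and Klre1 was under the limit for the test. The groups of Klrb1c, Klrd1, Prf1, Eomes, Tbx21 and Xcl1 overlapped. All of these genes were named after their values had been seen. The chemokine Ccl5 was at 2.81, 2.08 and 1.00 FPKM in young and at 1.69, 19.9 and 3.69 FPKM in old samples. Old replicate 2 was far above the rest and the groups overlapped. Il2rb, a receptor chain for interleukins, had a log2 change of 1.17 with separate groups (limma adjusted p = 0.101), the protease Ctsw one of 1.74 with overlap (0.196) and the granzyme Gzmk one of 2.02 with separate groups (0.0792).

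The mature B cell list had 10 of its 14 genes tested, with 1 higher, none lower and a median log2 change of -0.42. The shares of all genes tested were 5.65% higher and 3.81% lower. Ighm and Ighd were not analysed here. The gene that rose was Cd22, an inhibitory receptor of B cells, at 0.180, 0.356 and 0.218 FPKM in young and 1.39, 1.03 and 0.687 FPKM in old samples (log2 change 1.68, SE 0.39, limma adjusted p = 0.0415). All its old samples were above all its young samples, whereas the groups of Cd79a and Cd79b overlapped. Cd37, a tetraspanin of leukocytes, had a log2 change of 1.09 (limma adjusted p = 0.0875), the complement receptor Cr2 one of 0.30 and the transcription factor Spib one of -1.11, none of which passed. Without young replicate 1, only 6 genes of this list entered the test, and their median log2 change was 0.14. The 2 medians are of different sets of genes, so their difference does not show how the change of each gene moved. Cd22 did not pass in any of the comparisons that left out 1 sample (limma adjusted p of 0.0692 to 0.136).

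None of the 6 genes of B cell receptor signalling passed, and their median log2 change was 0.52. Lyn, Plcg2, Blnk and Syk, of which myeloid cells use several too, had log2 changes of 0.65, 0.16, 0.59 and 0.45. Among the 6 genes of pro-B and pre-B cells that stand beside Vpreb1, 3 were tested and none passed, with a median log2 change of -0.75. Vpreb3, a chaperone of the pre-B cell receptor, was at 2.48, 0.328 and 0.721 FPKM in young and at 0.184, 0.186 and 0 FPKM in old samples. The groups did not overlap, young replicate 1 was the highest, and the limma adjusted p was 0.102 (log2 change -2.27, SE 0.75). The recombinase Rag1 had all old samples below all young samples (log2 change -0.75, limma adjusted p = 0.156), and its partner Rag2 had a log2 change of 0.48. Vpreb2, the close copy of Vpreb1, was at 0.543 FPKM in young replicate 1 and listed at 0 elsewhere, and fragments shared between such copies could have been split by the counting.

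None of the 5 tested genes of the plasma cell list passed, with a median log2 change of 0.19. Sdc1, the surface proteoglycan of plasma cells and epithelia, had a log2 change of 0.19, Derl3 one of -0.80, Mzb1 one of 0.45 and Irf4 one of 0.25. Of these only Derl3, a protein of the endoplasmic reticulum, had groups that did not overlap, with old samples lower. The immunoglobulin genes of the list were not analysed here.

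**Figure D3:**
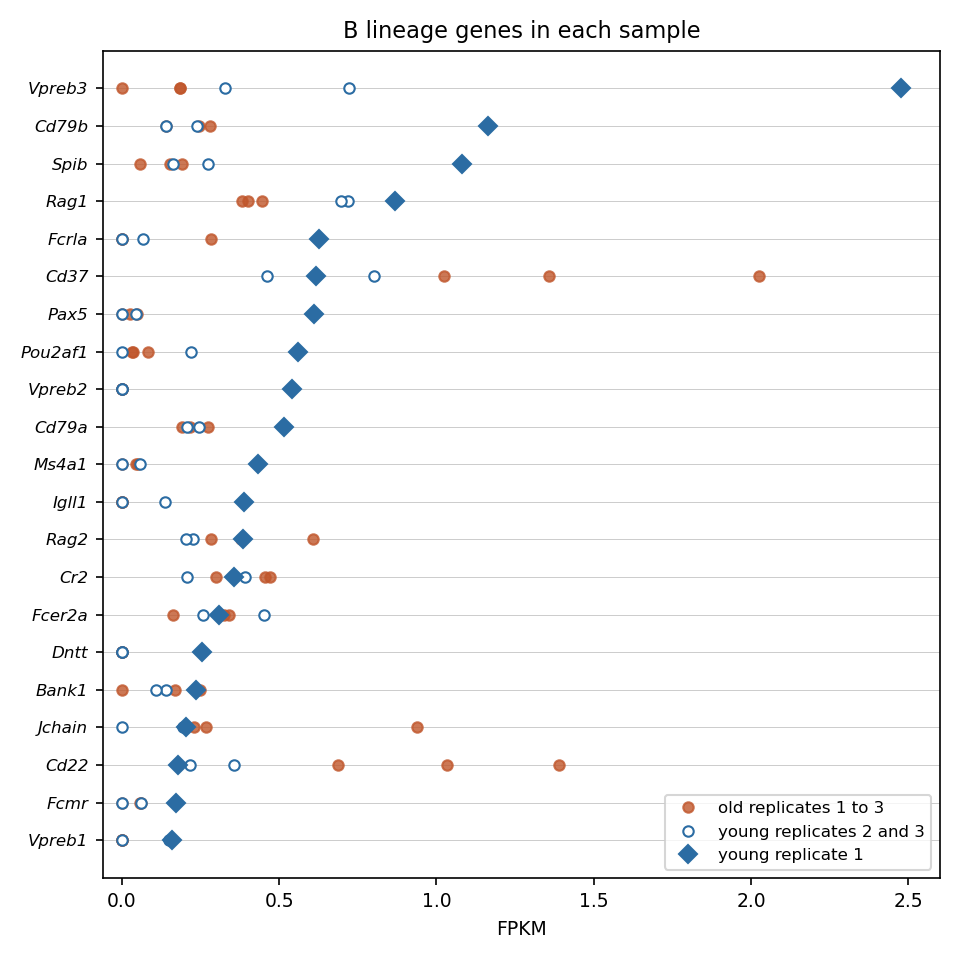
FPKM of B lineage genes in the 6 samples on a linear axis, with young replicate 1 as a diamond, young replicates 2 and 3 as open circles and the old samples as filled circles. For Vpreb3, Cd79b and Spib young replicate 1 lies far to the right of the other 5 samples, and for Cd22 and Cd37 the old samples lie to the right.

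Young replicate 1 was the highest of the 6 samples for Cd79a, Cd79b and Vpreb1, for 7 of 12 mature B cell genes and for 5 of 6 pro-B and pre-B cell genes, but for 13.1% of all genes tested. The B lineage members summed to 2.04, 0.833 and 0.346 FPKM in young samples and to 1.49, 0.586 and 0.704 FPKM in old samples. The same sample was the highest for all 10 neutrophil and marrow genes, all 8 erythroid genes analysed and all 6 bone genes. The neutrophil list, which S100a8 and S100a9 lead, summed to 441 FPKM in young replicate 1, to 11.7 and 28.3 FPKM in the other young samples and to 15.3 to 83.4 FPKM in old samples. The bone list summed to 191 FPKM in young replicate 1, to 32.0 and 89.8 FPKM in the other young samples and to 15.6 to 23.3 FPKM in old samples, and 2 of its 6 genes fell (Sp7 and Ibsp) and none rose. No bone gene passed when any one old sample was left out. The part of these genes in the B lineage values was not tested. Each of the T and NK members Cd3e, Cd3g, Cd4, Cd8a and Nkg7 was lower in young replicate 1 than in every old sample. Among the young samples, however, their sum was also highest in replicate 1 (1.51 FPKM, against 0.424 and 1.04 FPKM). Cd4, Cd8a and Nkg7 had this order, whereas Cd3e and Cd3g were highest in young replicate 3.

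Macrophage markers moved with the T and NK members. Of 11 macrophage genes 9 rose and none fell, with a median log2 change of 1.75, and their sum was 131 to 202 FPKM in young and 702 to 784 FPKM in old samples. Among them were Ptprc, the leukocyte antigen CD45 that lymphocytes share (log2 change 1.60, limma adjusted p = 0.0433), the lysozyme gene Lyz2 (2.64, adjusted p = 0.00163), the complement genes C1qa (1.93), C1qb (1.77) and C1qc (1.95), and Cd68 (1.75), Csf1r (1.24), Adgre1 (1.45) and Aif1 (2.098). Without 1 sample 7 or 8 of these genes passed, except that 1 passed without old replicate 2. No defining macrophage marker was at 0 in any sample. The part of these cells in the levels of Cd4, Lat or Vav1 was not tested. The order of the groups was the same for Cd3g and for Cd3e, which did not pass, and 17.6% of all genes tested shared it. Hair cell genes were present in all samples, with Ocm at 47.8 to 173 FPKM, and 3 of 7 were lower in old mice (Ocm, Slc26a5 and Chrna9), though 0 were without old replicate 2 and 1 without old replicate 1 or 3.

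**Figure D4:**
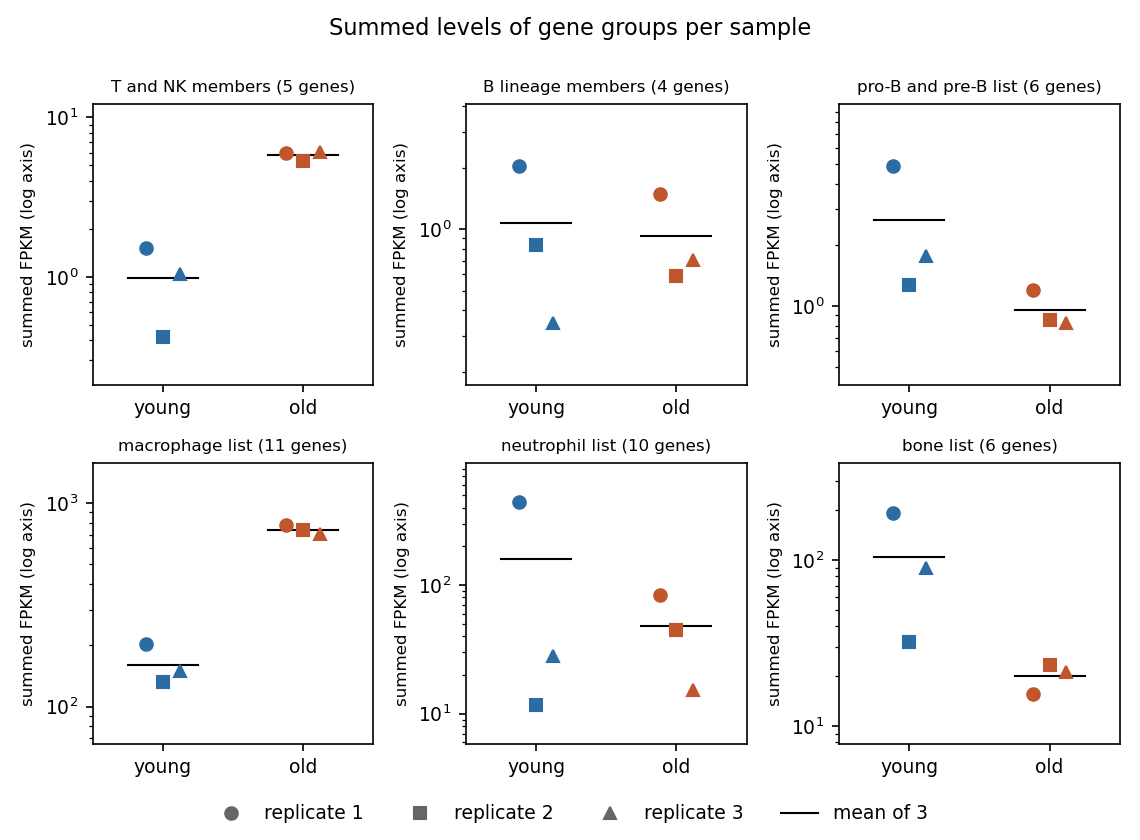
Summed FPKM per sample of the T and NK members, the B lineage members and the pro-B and pre-B, macrophage, neutrophil and bone lists, on log axes, with a line at the mean of 3. The T and NK members (0.424 to 1.51 FPKM in young, 5.33 to 6.03 FPKM in old samples) and the macrophage list separate the ages, and young replicate 1 is the highest sample in the B lineage, pro-B and pre-B, neutrophil and bone panels.

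The genes whose pattern was most like each member were taken by Pearson's r on the log2 scale over the 6 samples, among 14985 genes whose mean reached 1 FPKM. All 6 samples share the split into 2 ages, and the values are a description. For Cd4 the nearest were Slc2a10 (r = 0.9995), Itgb7 (r = 0.9991) and Rpl36a (r = 0.9964). Itgb7, an integrin chain that guides lymphocytes to the gut, was at 0.504, 0.0910 and 0.302 FPKM in young and at 1.63, 1.65 and 2.16 FPKM in old samples and had separate groups as well. For Cd3g they were Myof, Gp1ba and Cblc, for Cd8a an unannotated lncRNA of the authors, Susd1 and Shkbp1, and for Nkg7 Bin3, Btc and Fos, with r from 0.994 to 0.9994. For Cd3e the 3 nearest were lncRNAs of the authors (r from 0.997 to 0.9995). For Cd79a they were Slc2a6, Sh2d3c and Trim44, for Cd79b Prrt2, Ranbp9 and Lyrm4, and for Jchain Ran, Gm4593 and Vcpkmt, with r from 0.9677 to 0.9932. None of these genes is in the lymphocyte lists used here.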

How the data were processed

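Cochlear RNA of 3 young and 3 old pools of 3 mice was sequenced. The authors made directional paired-end libraries, aligned reads to GRCm38 and deposited FPKM per transcript and sample. The submitters' processing notes name CASAVA 1.8, TopHat2 2.0.9, Cufflinks 2.1.1 and Cuffdiff 2.1.1. How libraries were scaled to each other is not given in the sources used here, and the annotation release of the authors may differ from the one used here.

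Samples were grouped by the age in their labels. Of 56671 transcripts, 55275 were matched to GENCODE M21 and summed per gene, 992 lncRNAs of the authors were kept, and 404 unmatched Ensembl transcripts were left out. Leaving these out was decided after both versions had been computed, and it decides the call of Nkg7. FPKM sums were 576487 to 601724 per sample. Depth was estimated from steps between low values (92.8 to 94.6% within 0.1 of a whole number, 20% if spread evenly) at 12560000 to 15670000 fragments. Intervals cover counting error only, and p-values measure the spread between pools. An exact 0 can be a failed estimate, as 8 of 7705 genes with a mean of at least 10 FPKM were listed below 0.001 FPKM in a sample.

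The test was limma 3.58.1 in R 4.3.3 (lmFit, eBayes with trend) with age group as the only term, p adjusted over all genes tested. Median prior degrees of freedom were 3.42. Python 3.11.15 with scipy 1.17.1 was used for intervals. The code was tested on simulated data. The members and lists were chosen with earlier results of these data known. Named genes are all members, the up to 4 most abundant genes of each other list, listed genes past the threshold, and the 3 genes most like each tested member. Listed genes named outside this rule, after their values were seen, are Cd3d, Cd247, Cd8b1 and Xcr1. So are the NK and cytotoxic genes other than Ccl5, Il2rb, Ctsw and Gzmk. A single listed gene enters the counts but its values are left out of the text and plots. Alternatives varied the pseudocount, filter, scaling, variance trend, sample weights, block, transcript choice and threshold, or left out each sample. Deviations of samples with the same replicate number correlated at 0.02, -0.04 and 0.01, so no pairing by number was seen over all genes. A correlation over all genes cannot exclude a shared pattern in a few of them. The neutrophil list summed highest in replicate 1 at both ages (441 FPKM in young and 83.4 FPKM in old mice), but the bone and erythroid lists did so only in young mice.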

Additional observations from a re-analysis of the deposited data

How the results depend on the processing

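The comparisons rest on 3 pools per age, and most members on fewer than 40 fragments per group. With all samples, limma called 1099 genes higher and 741 lower, 3 members higher and none lower, and 4 other T, NK and B lineage genes higher and none lower. With an unadjusted p these counts were 2849 and 2554 genes, 5 members and 16 and 4 listed genes. Without a filter they were 211 and 105 genes and 1 member (Cd8a), and with a mean minimum of 1 FPKM 1 member (Cd4) and 2 listed genes. Without the trend they were 284 and 126 genes, 1 member (Cd8a), 2 listed genes higher and 1 lower. A minimum of 2-fold left 419 and 245 genes. Quantile normalization gave 2 listed genes, sample weights 7 and the most abundant transcript 1. With the replicate block, 440 genes were higher and 290 lower, with 1 member (Cd4) and 1 listed gene, and adjusted p was 0.0517 for Cd3g and 0.0621 for Nkg7.

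Leaving out 1 sample gave 46 to 949 genes higher, 16 to 822 lower, 0 to 2 members higher and 0 to 2 listed genes higher. Without old replicate 2 there were 46 and 16 genes, and without any one old replicate no member passed. Every log2 change kept its sign except that of Cd79b, which ranged from -1.05 to 0.14 when 1 sample was left out and was positive without young replicate 1. The adjusted p ranged from 0.0166 to 0.0819 for Cd4, from 0.00971 to 0.0913 for Cd3g, from 0.0220 to 0.162 for Nkg7 and from 0.0176 to 0.593 for Cd8a. Nkg7 kept its call in 3 of 16 alternatives, Cd3g in 8 of 16 and Cd4 in 12 of 17. Keeping the unmatched transcripts, an alternative chosen after seeing the data, gave 1063 and 724 genes and 2 members. The cause of these differences was not tested.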

Other observations

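Among 7 dendritic cell genes, of which 6 were tested, 2 rose and 1 fell. Itgax, the integrin chain CD11c, was at 0.161, 0.0192 and 0.128 FPKM in young and at 1.23, 1.95 and 1.30 FPKM in old samples (log2 change 3.02, SE 0.43, limma adjusted p = 0.0145). Siglech, a lectin of plasmacytoid dendritic cells and microglia, rose (log2 change 2.01, limma adjusted p = 0.0237). Flt3, a cytokine receptor of progenitors and dendritic cells, fell (log2 change -1.22, limma adjusted p = 0.0414). Xcr1, a receptor that defines cross-presenting dendritic cells, had a mean of 0.0540 FPKM and was not tested. None of these genes passed without old replicate 2 (limma adjusted p of 0.0681 for Itgax, 0.0885 for Siglech and 0.122 for Flt3) or without old replicate 3 (0.0506, 0.0703 and 0.0738). When 1 sample was left out, Itgax passed in 4 of 6 comparisons, Siglech in 2 and Flt3 in 1.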
